A study of Mus musculus with 12 samples.

Results

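The loci of 9 genes of cartilage and bone formation were analysed in ChIP-seq peak lists of mouse forelimb buds. The genes were the SOX family regulators *Sox9*, *Sox5* and *Sox6*, the RUNX family regulators *Runx1*, *Runx2* and *Runx3*, the cartilage matrix genes *Col2a1* and *Acan*, and the joint gene *Gdf5*. A locus comprised the gene body (GENCODE M21, mouse build mm10, GRCm38) and 100 kb to either side, and its members were all rows of the 12 lists whose summit lay in it. Every row of a list is 1 summit, the point of highest coverage within a peak, so that a broad peak can take several rows. The 9 loci (of 21938 protein-coding genes) covered 4023.2 kb and held 820 of the 268431 rows of all lists. They were chosen by gene and not by a rule on measured values, though earlier results of these data were known.

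Forelimb buds were taken from Swiss Albino wild-type embryos 6 h after intraperitoneal injection of the pregnant females at E10.5. The females received Wnt-C59 (C59) at 10 µg/g or, as controls, DMSO in PBS. By the study's methods the C59 solution also held methylcellulose and Tween-20, so the control solution was not its exact vehicle. C59 inhibits the enzyme porcupine and so blocks the secretion of all WNT ligands. Chromatin was precipitated with antibodies against β-catenin or against acetylated lysine 27 of histone H3 (H3K27ac), with 2 biological replicates per antibody and treatment, each of 20 pooled forelimb buds. Whole limb buds hold mesenchyme, ectoderm and other cells, and fewer cells with a mark cannot be told apart from less of the mark per cell. The comparison asks which regions near the 9 genes carried β-catenin and an active chromatin mark, and what was left of both after WNT secretion was blocked.

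In canonical WNT signaling, ligand binding stabilises β-catenin, which enters the nucleus and is brought to DNA by TCF/LEF factors. H3K27ac marks active promoters and enhancers. SOX9 is required for mesenchymal cells to condense and become chondrocytes, and SOX5 and SOX6 act with it on cartilage genes. RUNX2 directs osteoblast formation and chondrocyte maturation, while RUNX1 and RUNX3 are best known from blood and from sensory neurons and also act in skeletal cells. COL2A1 and aggrecan are the main collagen and proteoglycan of cartilage, and GDF5 is a BMP family ligand that marks the future joints. Canonical WNT signaling is known to hold back chondrogenic differentiation of limb mesenchyme.

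In wild-type controls (DMSO), β-catenin was called at all 9 loci, with a consensus of 61 summits in both replicates, and after C59 no β-catenin summit was called at any of them. The list was led by *Sox6* with 19 summits, *Sox5* with 14 and *Runx2* with 13. *Sox9*, *Col2a1* and *Acan* had 1 summit each. For comparison, 58.8% of protein-coding genes had a consensus summit in a window drawn by the same rule. Their median window was 217.4 kb, against 204.3 kb (*Gdf5*) to 1154 kb (*Sox5*) at the 9 loci. Neither this share nor the other shares over genes given below were matched for window length. Over the genome, 98.9% of wild-type consensus summits were outside the C59 consensus peaks. H3K27ac remained at the 9 loci: 44 of 51 wild-type consensus regions overlapped a region after C59 (86.27%, against 87.05% over the genome).

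The sequences below show 60 bp at 8 of the β-catenin sites, 1 per locus. They are the strongest wild-type consensus summits with a TCF/LEF core (ATCAAAG or TTCAAAG on either strand), the sequence that TCF/LEF factors recognise, or, at loci where no summit had a core in the 200 bp window centred on it, the strongest summit. The weakest of these last, at *Col2a1*, is left out. They are read 5′ to 3′ on the plus strand of the GRCm38 reference, which is that of another mouse strain than the embryos, and the core is in capitals. Lower case alone marks a site without a core. At *Sox5* the core lies 48 bp from the summit, and the summit itself is outside the printed stretch.
Sox9, chr11:112835812-112835871, intergenic: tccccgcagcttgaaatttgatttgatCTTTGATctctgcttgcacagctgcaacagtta
Sox5, chr6:144361470-144361529, intron of *Sox5*: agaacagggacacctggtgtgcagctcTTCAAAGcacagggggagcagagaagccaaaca
Sox6, chr7:115597339-115597398, exon of *Sox6*: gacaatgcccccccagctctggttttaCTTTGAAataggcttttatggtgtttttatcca
Runx1, chr16:92739293-92739352, intron of *Runx1*: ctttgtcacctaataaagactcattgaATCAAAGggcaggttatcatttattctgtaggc
Runx2, chr17:44402262-44402321, intergenic: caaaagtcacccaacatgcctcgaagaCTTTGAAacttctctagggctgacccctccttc
Runx3, chr4:135140792-135140851, intron of *Runx3*: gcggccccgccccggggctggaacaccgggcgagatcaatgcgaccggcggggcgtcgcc
Acan, chr7:78959498-78959557, intergenic: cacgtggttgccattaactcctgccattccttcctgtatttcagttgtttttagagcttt
Gdf5, chr2:155863420-155863479, intron of *Uqcc1*: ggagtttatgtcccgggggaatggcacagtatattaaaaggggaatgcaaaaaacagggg

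A library's depth sets which peaks can pass the caller's threshold. The background coverage that the caller expected was 1.57 and 1.81 fragments in the DMSO β-catenin libraries and 1.83 and 1.82 after C59, so the C59 libraries were not shallower. All lists were made with a q-value threshold, which follows the number of peaks, and the weakest summits listed had a −log10 p of 3.89 and 3.79 in the DMSO lists but 5.69 and 5.73 in the C59 lists. At background coverage, a site thus needed a fold enrichment of 3.50 and 3.20 to be listed in the DMSO libraries and 4.24 and 4.26 after C59. Of the 61 consensus summits, 54 lay in peaks with a −log10 p above 5.73 in both DMSO replicates, and the 7 others were 6 of the 13 *Runx2* summits and 1 of the 19 *Sox6* summits. A fold enrichment above 4.26 in both DMSO replicates was reached by 52 of the 61. These were 6 of 13 at *Runx2*, 18 of 19 at *Sox6*, 3 of 4 at *Runx1* and all at the other loci. For the H3K27ac libraries the background was between 2.69 and 3.17 fragments, and the lowest −log10 p was between 3.53 and 3.59. The labels give no batch. The TSSs of 6 of 6 limb mesenchyme markers (such as *Prrx1* and *Tbx5*) carried H3K27ac in all 4 libraries, as did 1 of 2 hindlimb markers (*Tbx4*, but not *Pitx1*), 1 of 3 ectoderm, 2 of 3 muscle precursor, 0 of 3 endothelium, 1 of 3 blood and 1 of 3 neural crest markers. *Trp63*, *Fgf8*, *Kdr*, *Gata1*, *Ptprc*, *Sox10* and *Foxd3* had none in any library. No share over all genes was counted beside these marker numbers.

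At *Sox6*, 26 and 27 β-catenin summits were called in DMSO replicates 1 and 2, and 19 were in the consensus. *Sox5* had 20 and 19 summits, with 14 in the consensus. *Sox9* had 2 and 2 summits, of which 1 was in the consensus. The replicates differed little within each SOX locus, and the largest gap among the 9 loci was at *Runx2*, with 13 and 20 summits and 13 in the consensus. *Runx1* had 8 and 8 summits (consensus 4), and *Runx3* had 4 and 5 (consensus 4). *Col2a1* had 2 and 3 summits (consensus 1), *Acan* had 2 and 2 (consensus 1), and *Gdf5* had 4 and 4 (consensus 4). Both C59 replicates had 0 summits at each of the 9 loci, so that the groups did not overlap at any locus, as in 82.8% of protein-coding genes with any β-catenin summit in the same window.

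**Figure D1:**
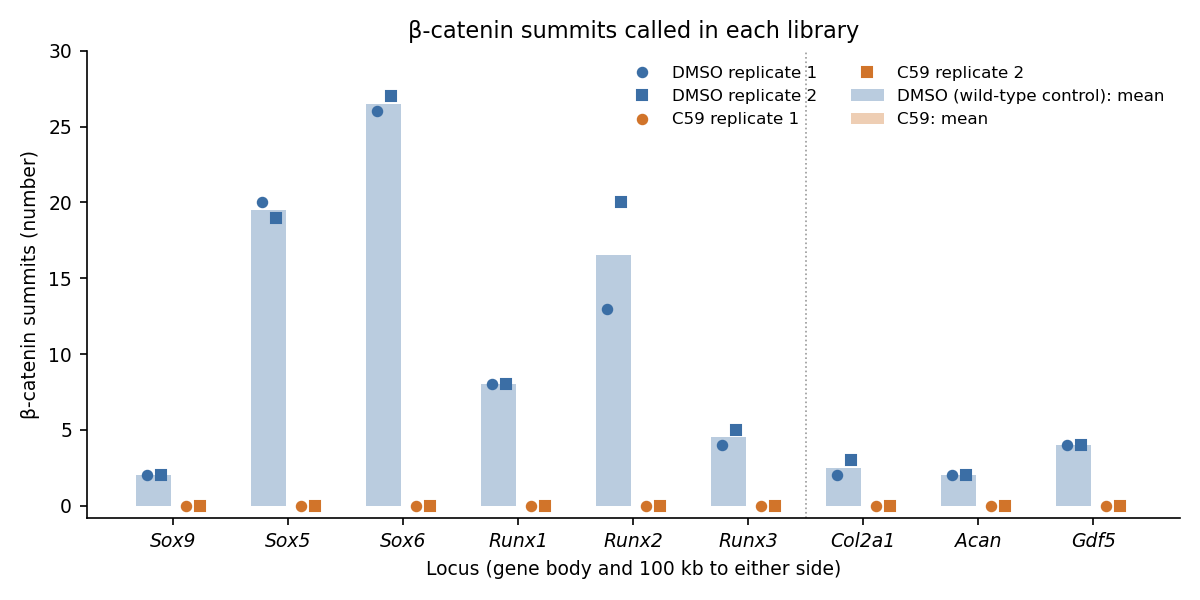
Number of β-catenin summits (vertical axis) called at each locus (horizontal axis) in each of the 4 replicate libraries. Circles and squares are replicates 1 and 2, bars are their means, and the dotted line separates the 6 regulators from the 3 cartilage and joint genes; the DMSO counts run from 2 to 27, and all 18 C59 points are at 0.

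Summed over the 9 loci, the 2 DMSO libraries held 81 and 90 summits (mean 85.5 ± 6.36 SD, n = 2) and the 2 C59 libraries 0 and 0. This difference exceeded the spread between replicates, yet with 2 libraries per group the exact two-sided permutation test cannot give a p below the 0.33 found here. None of the 61 consensus summits lay in a peak of either C59 replicate or of the C59 consensus, and 0 of 61 has an upper 95% Wilson limit of 5.92% (counting error only). Over the genome 98.9% of 16193 consensus summits were outside the C59 consensus peaks, so the loss at the 9 loci was close to that of β-catenin summits in general. The C59 summit nearest to any of the gene bodies was 195.1 kb from *Runx2*, with a fold enrichment of 5.22 in replicate 2, and at *Sox5*, *Sox6*, *Col2a1*, *Acan* and *Gdf5* the nearest C59 summit of any list was over 4 Mb away.

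The density of summits set the regulators apart from each other. *Runx2* had 2.51 consensus summits per 100 kb and *Sox6* 2.47, values that only 2.51% and 2.70% of protein-coding genes reached. *Gdf5* had 1.96 (reached by 5.42% of genes), *Runx3* 1.55 (8.88%), *Sox5* 1.21 (16.2%) and *Runx1* 0.942 (23.5%). *Sox9* with 0.487 (38.9%), *Col2a1* with 0.437 (49.8%) and *Acan* with 0.382 (54.4%) lay close to the median gene, which had 0.434. At least 1 consensus summit was present at 58.8% of protein-coding genes. The large number of *Sox5* summits thus came with its long window of 1154 kb, whereas *Gdf5*, a gene of 4.35 kb, came next after *Runx2* and *Sox6* in density with its 4 summits. This rank depended on counting summits. Counted as peak regions, *Gdf5* had 3 in 204.3 kb and *Runx3* 4 in 257.3 kb, so that *Gdf5* came after *Runx3*.

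As groups, the 6 regulators had 1.65 consensus summits per 100 kb and the 3 cartilage and joint genes 0.863, a ratio of 1.91. The replicates gave 2.19 and 2.43 for the regulators and 1.15 and 1.30 for the cartilage and joint genes. The 9 genes are not replicates of a condition, and the ratio was not tested. It depended on the window, since within the gene bodies alone it was 1.00.

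The consensus summits at the loci had a median fold enrichment of 7.74 (range 3.60 to 22.1), against 6.76 (1.66 to 43.6) over all summits. Regulators and cartilage or joint loci had like medians of 7.74 and 7.70, but the 6 cartilage and joint summits did not exceed 9.94.

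The strongest summit was in an intron of *Runx3* (chr4:135140822), with a consensus fold enrichment of 22.1 and 18.7 and 20.5 in the peaks of DMSO replicates 1 and 2. Only 0.902% of all summits were as strong. This is the CG-rich sequence without a TCF/LEF core shown above. It lay 11.7 kb from the nearest TSS of a *Runx3* protein-coding transcript and 5.77 kb from the nearest wild-type H3K27ac region. A second *Runx3* summit, 70.5 kb upstream of the gene (chr4:135050169), had a fold enrichment of 11.4 (10.2 and 9.42 in the replicates). The summit at chr4:135166570 (7.74, with 6.75 and 7.24) was inside an H3K27ac region with fold enrichments of 12.8 and 8.38 in the DMSO and 10.6 and 10.4 in the C59 libraries.

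*Sox5* had 5 summits over 17-fold, more than any of the other loci. The strongest of them, in an intron (chr6:144454445), had a fold enrichment of 20.4 (17.8 and 18.9 in the replicates). H3K27ac was present at this site in all 4 libraries, at 5.29 and 6.40 in DMSO and 5.49 and 7.03 after C59. The summit beside the TCF/LEF core shown above (chr6:144361452) had 19.4 (15.5 and 17.1), and the H3K27ac region around it was listed in DMSO replicate 2 (3.60) and C59 replicate 2 (3.27) alone. Summits at chr6:144312800 and chr6:143997754 had 18.5 and 18.4, the first 140 bp outside an H3K27ac region. The fifth, with 17.4 (16.0 and 14.98), lay 6.17 kb upstream of the start of the gene (chr6:144788147). Closest to a TSS of a *Sox5* protein-coding transcript, at 1.61 kb, was a summit of 8.13 (7.05 and 7.74), 101 bp from the edge of the promoter's H3K27ac region.

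**Figure D2:**
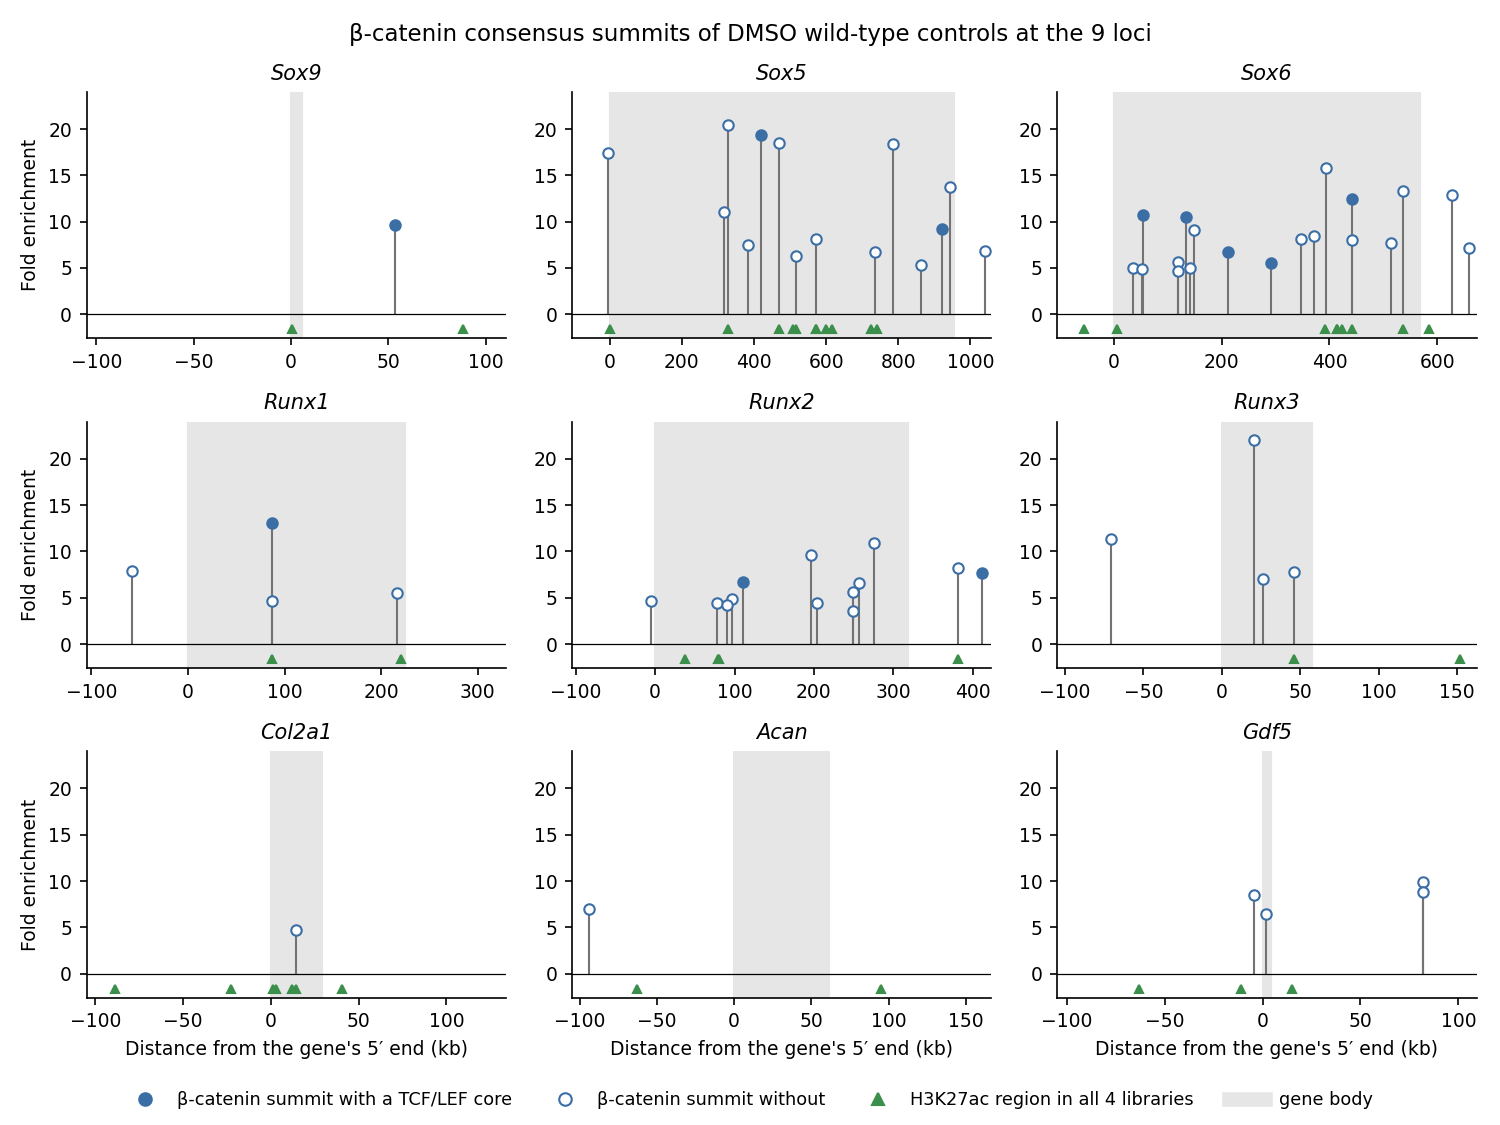
Fold enrichment (vertical axes) of the 61 wild-type β-catenin consensus summits against their distance from the 5′ end of the gene in kb (horizontal axes, scaled per locus). Filled circles have a TCF/LEF core in the 200 bp window and open circles none, grey marks the gene body, and green triangles below the axis are H3K27ac regions listed in all 4 libraries; the 11 filled circles are at *Sox9*, *Sox5*, *Sox6*, *Runx1* and *Runx2*.

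*Sox6* summits were spread over the whole gene. The strongest (chr7:115645863, intron) had a fold enrichment of 15.8 (15.2 and 14.9 in the replicates). H3K27ac at this position was 5.36 and 4.65 in DMSO and 2.68 and 3.51 after C59, so that the C59 values lay below both DMSO values. The strongest H3K27ac summit of the whole region (chr7:115645382-115646989) was 6.44 and 7.21 in DMSO and 6.15 and 5.42 after C59, a log2 change of −0.21 (SE 0.11, limma adjusted p = 0.57 over all regions). The next were at chr7:115501689 (13.3) in an intron, at chr7:115410803 (12.9) 60.1 kb downstream of the gene, and at the exonic site with the core shown above (12.4, with 9.73 and 11.4). Closest to a protein-coding TSS of *Sox6* was a core-bearing summit 1.57 kb away with 6.68 (4.77 and 6.52).

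*Runx1* had its strongest summit in an intron (chr16:92739295), at 13.0 (11.99 and 12.1). Its 60 bp sequence above holds an ATCAAAG core 28 bp from the summit. A weaker summit 596 bp away, with 4.61 (4.32 and 4.05), was inside a merged H3K27ac region with fold enrichments of 5.27, 5.89, 6.23 and 5.60 in DMSO replicates 1 and 2 and C59 replicates 1 and 2. The strong summit itself lay 124 bp from the edge of the wild-type region. No H3K27ac peak of any library covered the strong summit.

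*Runx2* had many summits of low enrichment, with a median of 5.57. The strongest (chr17:44539067, intron) had 10.9 (10.6 and 10.4), and the next (chr17:44618518) had 9.66 (7.12 and 10.3). The *Runx2* summit at chr17:44736377 was the only one of the 61 that lay less than 1 kb from a protein-coding TSS of its own gene, at 0.271 kb in the UTR. Its fold enrichment was 4.42 (4.12 and 3.02), and H3K27ac there was 4.78 and 6.62 in DMSO and 4.97 and 5.52 after C59. As 6 of the 13 *Runx2* summits were below the lowest −log10 p of the C59 lists in a DMSO replicate, their absence after C59 is less firm than at the other loci.

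The single *Sox9* consensus summit lay in the gene desert 53.6 kb from the TSS (chr11:112835837), downstream of the gene. It had a fold enrichment of 9.62 (9.10 and 7.11) and holds an ATCAAAG core 5 bp from the summit on the minus strand. No wild-type H3K27ac region was within 34.2 kb of it. *Sox9* is the nearest protein-coding gene for 17 consensus summits, since its desert extends far beyond the window, and a window of 200 kb held 5. At the *Sox9* TSS itself no β-catenin summit was called.

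The cartilage genes *Col2a1* and *Acan* had 1 summit each, both below the median of 7.74 at the 9 loci. The *Col2a1* summit (chr15:97990266) was in an intron, 14.4 kb from the nearest TSS of a *Col2a1* protein-coding transcript. The nearest annotated TSS of any kind was 210 bp away. The summit had a fold enrichment of 4.73 (4.41 and 4.32), and 84.7% of all summits were at least as strong. The H3K27ac region that holds it had 3.03 and 4.36 in DMSO and 4.48 and 3.74 after C59 (log2 change 0.20, SE 0.18, limma adjusted p = 0.74). The *Acan* summit (chr7:78959528) had 6.94 (5.52 and 7.82), was 94.0 kb upstream of the TSS and lay nearer to the TSS of *Isg20*. It is the summit nearest to the limit of the 100 kb window on the inside, and the nearest on the outside was 101.7 kb from *Runx1*, with 9.66.

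*Gdf5* had 2 of its 4 summits near the gene. The first was 4.20 kb upstream of the TSS (chr2:155949562) with 8.45 (6.09 and 9.63), and the second 1.86 kb inside the gene (chr2:155943509) with 6.48 (4.62 and 5.80). The 2 others were 217 bp apart in an intron of *Uqcc1*, 81.9 and 82.1 kb from the TSS, and the stronger one had 9.94 (7.0 and 9.27). At the latter, whose sequence is shown above, the H3K27ac fold enrichment was 3.33 and 4.74 in DMSO, 3.80 in C59 replicate 1 and not called in C59 replicate 2.

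Summits were mostly within the member's own gene. Of the 61, 45 lay in an intron of the member, 3 in an intron of another gene, 11 between genes and 2 in a UTR or exon. The member was the nearest protein-coding gene for 55. Windows drawn around the member's gene body favour both counts. The body took up 953.6 of 1154 kb at *Sox5* and 5.54 of 205.5 kb at *Sox9*. The same shares over all summits were not counted. Few summits were close to an annotated TSS of any kind: 3 of 61 (4.92%, 95% Wilson interval 1.69 to 13.5%) were less than 1 kb away, against 16.3% of all summits. These intervals reflect counting error alone, and summits of 1 gene are not independent.

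A TCF/LEF core lay within the 200 bp window of 11 of 61 summits (18.0%, 10.4 to 29.5%), against 28.6% of all summits. It was found at 5 of 19 *Sox6*, 2 of 14 *Sox5*, 2 of 13 *Runx2*, 1 of 4 *Runx1* and 1 of 1 *Sox9* summits, and at none of the 4 *Runx3* and 6 cartilage and joint summits. Of the windows placed 2 kb upstream and downstream as controls, 7.38% had a core at the 9 loci and 8.69% over the genome. A SOX core (ACAAAG) was in 14 of 61 windows (23.0%; all summits 18.8%) and in 19.7% of the flanking windows. A RUNX core (TGTGGT or TGCGGT) was in 12 (19.7%; all summits 16.7%) and in 13.9% of the flanking windows. The 3 cores share letters in part, and a window could hold more than 1, as at the strong *Runx1* summit, which had all 3.

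Few of the sites were acetylated. Of the 61 summits, 11 (18.0%, 10.4 to 29.5%) lay inside a wild-type H3K27ac consensus region and 9 (14.8%, 7.96 to 25.7%) inside a C59 region, against 22.1% and 23.0% of all summits. All 9 of the latter were also among the former, and the 2 that were not were the neighbouring *Gdf5* summits in *Uqcc1*. A further 7 summits (11.5%; all summits 10.9%) lay within 500 bp of the edge of a wild-type region, among them the strongest *Runx1* summit and 1 of the 5 strongest *Sox5* summits.

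H3K27ac summits did not fall overall. The 9 loci held 101 and 101 summits in the DMSO libraries (mean 101 ± 0 SD, n = 2) and 122 and 97 after C59 (mean 109.5 ± 17.7 SD, n = 2), with an exact two-sided permutation p of 1.0. At *Sox6*, 19 and 24 summits were called in DMSO and 37 and 28 after C59, so that both C59 libraries were above both DMSO libraries, as in 5.71% of protein-coding genes with H3K27ac in the window. *Sox5* had 22 and 21 against 30 and 22, and *Sox9* 5 and 3 against 6 and 5, where the groups met. Both C59 libraries were below both DMSO libraries at *Runx2* (11 and 11 against 10 and 10), *Runx3* (5 and 6 against 3 and 3) and *Gdf5* (8 and 8 against 7 and 6), as in 14.2% of genes. At *Runx1* (8 and 7 against 9 and 3), *Col2a1* (19 and 15 against 16 and 17) and *Acan* (4 and 6 against 4 and 3) the groups overlapped.

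**Figure D3:**
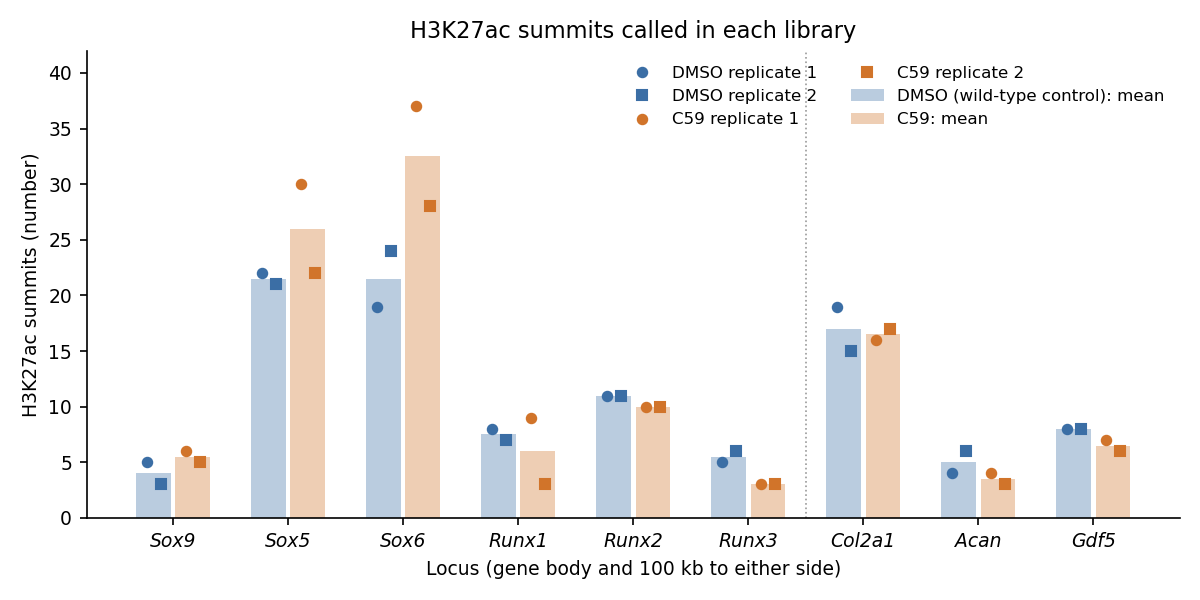
Number of H3K27ac summits (vertical axis) called at each locus (horizontal axis) in each of the 4 replicate libraries. Circles and squares are replicates 1 and 2, bars are their means, and the dotted line separates regulators from cartilage and joint genes; *Sox6* has 37 and 28 summits after C59 against 19 and 24 in DMSO.

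Most *Sox6* regions were not shared by all libraries. Overlapping peaks of the 4 libraries were merged to 34 regions at this locus, of which 9 were in all 4. Another 10 regions were in C59 replicate 1 alone and 3 in C59 replicate 2 alone, against 1 and 1 in the DMSO replicates, with fold enrichments from 2.85 to 4.38. Over the genome, 8.61% of 34047 merged regions were in C59 replicate 1 alone, against 29.4% at *Sox6*. Without C59 replicate 1, the locus had 20 regions after C59 and 12 and 16 in DMSO. A further 4 regions were listed in both C59 libraries and in neither DMSO library (background 2.15%), and all 4 of these at the 9 loci were at *Sox6*. They are chr7:115414999-115415469 (2.78 and 4.1), chr7:115669676-115669932 (3.12 and 3.27), chr7:115833919-115834235 (3.80 and 3.70) and chr7:115865921-115866374 (3.08 and 3.32), the first downstream of the gene and the others in it. A region in both DMSO and in neither C59 library (background 3.03%) was found at *Sox6* (chr7:115564433-115564822, 2.88 and 3.44) and at *Runx3* (chr4:135146570-135146915, 5.15 and 3.35). At background coverage, a region needed a fold enrichment of 2.83 to 3.02 to be listed.

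In the consensus lists, 44 of 51 wild-type regions at the loci shared 1 bp or more with a C59 region (86.3%, 74.3 to 93.2%). The 7 not overlapped were 2 at *Runx1*, 2 at *Runx2* and 1 each at *Sox6*, *Runx3* and *Gdf5*, and over the genome 13.0% of wild-type regions were not overlapped. Conversely, 40 of 49 C59 regions overlapped a wild-type region (81.6%, 68.6 to 90.0%; over the genome 10.7% did not). Of the 9 that did not, 6 were at *Sox6* and 1 each at *Sox9*, *Runx1* and *Runx2*. At *Sox5*, *Col2a1* and *Acan* every consensus region of either treatment overlapped 1 of the other. Among the cartilage and joint genes 15 of 16 wild-type regions were overlapped, and among the regulators 29 of 35.

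The level of H3K27ac was compared in the 42 merged regions at the loci that had a summit in all 4 libraries, with limma on log2 fold enrichment centred on the library median. No region passed (adjusted p under 0.05, Benjamini-Hochberg over 17475 regions; 0.0% called over the genome in either direction). At an unadjusted p under 0.05 there were 2 of the 42 regions, against 10.2% of all regions. The log2 change was above 0 in 29 regions and below in 13, with a median of 0.08 (all regions 0.03) and a range from −0.26 to 0.50. Both C59 values were above both DMSO values in 10 of the 42 regions (20.9% of all regions) and below in 5 (19.4%).

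**Figure D4:**
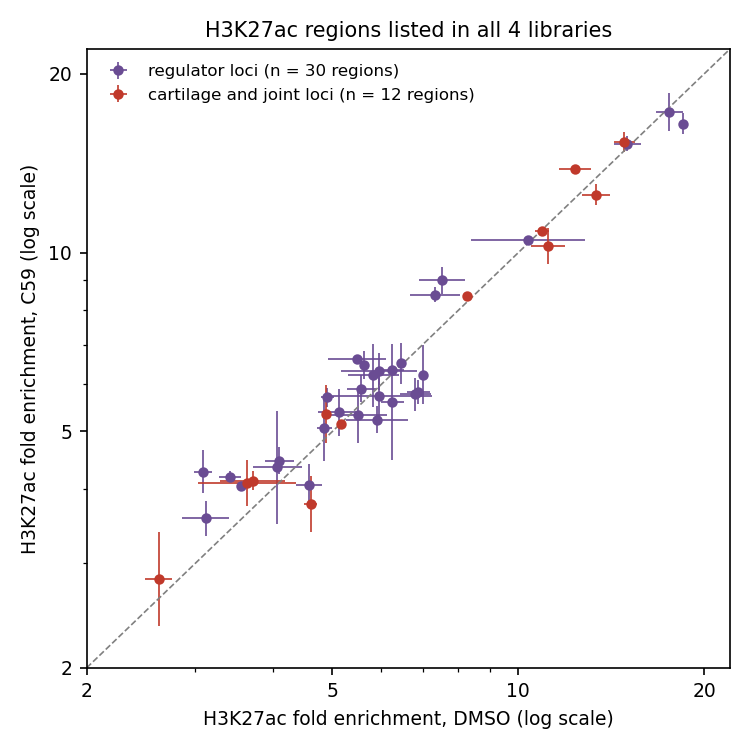
H3K27ac fold enrichment in DMSO (horizontal) and C59 (vertical axis, both log scales) of the 42 merged regions at the 9 loci listed in all 4 libraries. Points are geometric means of 2 replicates, bars span the replicates and the dashed line marks equal values; the 30 regulator and 12 cartilage and joint regions follow the line.

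The 3 regions with the lowest p were all in introns of SOX genes and were higher after C59. At *Sox5*, chr6:144273308-144273807 had fold enrichments of 3.19 and 2.99 in DMSO and 4.65 and 3.94 after C59, a log2 change of 0.50 (SE 0.12, limma adjusted p = 0.41). At *Sox6*, chr7:115625132-115625798 had 3.27 and 3.56 against 4.29 and 4.1 (0.32, SE 0.11, limma adjusted p = 0.44). The third was at *Sox5*, chr6:144264197-144265852, with 6.90 and 8.18 against 9.48 and 8.51 (0.28, SE 0.12, limma adjusted p = 0.51). Only the last holds a β-catenin summit, with a fold enrichment of 6.29, which was not called after C59. In each of the 3 regions the groups did not overlap, but none of the differences passed the adjusted threshold.

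At TSSs, H3K27ac less than 1 kb from a protein-coding start was called for 6 of the 9 genes. The share of all protein-coding genes with such a summit was not counted, so this number has no background beside it. For *Sox9* the highest summit was 4.92 and 6.11 in DMSO and 6.72 and 6.52 after C59, so that both C59 values were above both DMSO values (log2 change of its region 0.30, SE 0.13, limma adjusted p = 0.52). *Sox5* had 6.53 and 5.97 against 6.26 and 6.41, *Runx2* 5.25 and 6.62 against 5.42 and 5.52, and *Col2a1* 5.14 and 5.20 against 5.11 and 5.19, and at all 3 the groups overlapped. *Sox6* had 7.02 and 7.01 against 3.83 and 5.55, but the region that holds the DMSO summits has a summit of 6.98 in C59 replicate 1 that lies outside the 1 kb limit, and the log2 change of this region was −0.15 (SE 0.13, limma adjusted p = 0.72). *Runx1* had 6.51 and 5.66 in DMSO, 8.39 in C59 replicate 1 and no summit in C59 replicate 2. *Runx3*, *Acan* and *Gdf5* had no H3K27ac summit at a TSS in any library. The strongest regions in their windows were at TSSs of their neighbours *Clic4* (14.3 and 15.8 in DMSO), *Mfge8* (14.1 and 12.7) and *Cep250* (14.3 and 15.4). *Runx3* also had a strong region within the gene, away from its TSSs, with 12.8 and 8.38 in DMSO and 10.6 and 10.4 after C59.

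**Figure D5:**
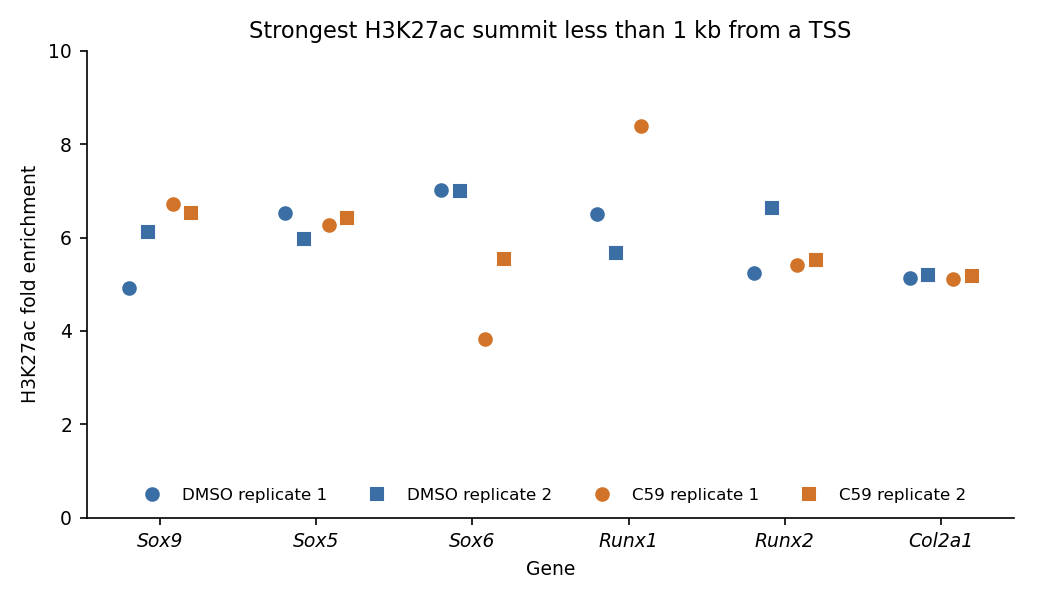
Fold enrichment (vertical axis) of the strongest H3K27ac summit less than 1 kb from a protein-coding TSS in each of the 4 libraries, for the 6 genes with any (horizontal axis). Circles and squares are replicates 1 and 2; *Col2a1* lies between 5.11 and 5.20 in all libraries, and *Runx1* has no point for C59 replicate 2.

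*Col2a1* thus differed from *Acan* and *Gdf5* among the cartilage and joint genes. Its window had 7.86 wild-type H3K27ac consensus summits per 100 kb, which 6.39% of protein-coding genes reached, while *Acan* had 1.15 (65.6%) and *Gdf5* 2.94 (37.5%). Of the 7 *Col2a1* regions in all 4 libraries, 4 were in the gene body and the acetylated TSS region alone was 2306 bp long. The strongest regions in the window were at TSSs of neighbours, namely *Senp1* and *Pfkm* (13.1 and 11.7 in DMSO) and *Tmem106c* (8.23 and 8.31). The regulators had between 0.973 (*Sox9*) and 1.95 (*Sox6*) summits per 100 kb, against a median of 2.09 over protein-coding genes. The *Col2a1* window, neighbours included, thus had the highest H3K27ac density of the 9 loci and, after *Acan*, the lowest β-catenin density.

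The same measures were taken at 21 other genes of chondrogenesis, a list of further SOX and RUNX partners, matrix genes and skeletal regulators and receptors. Of the 21, 16 had a wild-type β-catenin consensus summit, against 58.8% of all protein-coding genes. They held 67 summits in all, against 1 after C59. Over the genome, 98.9% of wild-type consensus summits were outside the C59 consensus peaks. Both C59 libraries were below both DMSO libraries at 18 of 21, against 82.8% of all genes with a summit. *Trps1*, a GATA-type repressor of chondrocyte maturation, had the highest density with 2.98 per 100 kb (16 and 18 summits in DMSO) against 1 and 2 summits after C59. *Matn3*, a cartilage matrix protein, had 2.68, the parathyroid hormone receptor gene *Pth1r* 2.67 and the BMP receptor gene *Bmpr1b* 2.25. *Col9a3*, *Col10a1*, *Cbfb*, *Barx2* and *Ihh* had none in the consensus. The median of 0.959 per 100 kb was thus between that of *Sox9* and that of *Sox5*. H3K27ac counts were higher after C59 without overlap at 2 of the 21 genes (5.71% of all genes) and lower at 2 (14.2%). TSSs of 9 of the 21 carried H3K27ac in all 4 libraries and those of 9 in none, again without a share over all genes.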

How the data were processed

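Peak lists of 8 β-catenin and H3K27ac ChIP-seq libraries (2 per antibody and treatment) and the 4 consensus lists were used. The 4 input samples were not analysed here. The authors trimmed reads with Cutadapt (4.1 in the submitters' processing notes), mapped them with Bowtie2 2.4.5 to mm10, discarded alignments with a mapping quality under 30 and called summits with MACS2 2.2.7.1 without input. For the consensus they removed duplicates with Picard 2.27.4, sampled replicates to the smallest, called peaks jointly and kept summits in peaks of both replicates. The deposited values are the fold enrichment (a ratio to the coverage that MACS2 expected there), with −log10 p-value and −log10 q-value columns; counts of reads are not part of the lists. Without input, local bias stays in the fold enrichment.

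Summits were assigned by a window of 100 kb around gene bodies of GENCODE M21 (0 peaks passed a chromosome end of GRCm38). Summits within a peak of the second list, and regions overlapping by 1 bp, were counted as kept. The value of a library at a summit is that of the nearest summit of its peak there, and none where no peak covers it. Coverage was solved from fold enrichment and p. Over 17475 H3K27ac regions in all 4 libraries, log2 of the highest fold enrichment was tested with limma 3.58.1 (R 4.3.3) with Benjamini-Hochberg adjustment. The study's methods state that the replicates of a condition included embryos of several litters, while the labels do not say which entered each library, and p-values measure the spread between these libraries. Cores were searched in 200 bp windows. Functions were tested on simulated data. Python 3.11.15, pandas 2.3.3, scipy 1.17.1 and pysam 0.24.0 were used.

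All 9 genes are named, with each locus's strongest β-catenin summit, the summits nearest its TSSs, promoter H3K27ac and the 3 H3K27ac regions with the lowest p. The genes, lists, cores and tests were chosen with earlier results of these data known. The alternatives comprised other windows, stricter limits, other overlaps, single replicates, other scalings and a replicate block. Same-numbered libraries were not paired by the labels.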

Additional observations from a re-analysis of the deposited data

How the results depend on the processing

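The absence of β-catenin after C59 at the loci held under every alternative run except a window of 200 kb, where 98.8% of the wild-type summits were outside C59 peaks because the site 195.1 kb from *Runx2* entered. The ratio of regulator to cartilage and joint summit density was 1.00 within gene bodies and between 1.79 and 2.32 otherwise. At single loci, counts of β-catenin summits moved by over 1.5 times in 24 of 81 values. *Acan* had 0 summits with a window of 50 kb, and *Col2a1* had 0 with a fold enrichment of at least 5. The number of H3K27ac regions was 78 in DMSO with a window of 200 kb and 80 when summits were counted. After C59 it was 87 when summits were counted, 32 with a fold enrichment of at least 5, and from 67 to 85 in single replicates. The share of wild-type regions overlapped after C59 was 68.6% with a reciprocal overlap of 50%, and from 72.0 to 83.1% in single replicates. That of C59 regions overlapped in DMSO was 93.8% with a fold enrichment of at least 5, and from 63.5 to 80.6% in single replicates. With H3K27ac regions extended by 1 kb, 29.5% of β-catenin summits were inside.

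The limma fit called 0 regions of the loci without centring, with quantile normalization, with means of summits, with another log scale, without any 1 replicate and with a replicate block (0 calls). In the centred values of the main fit, the deviations of same-numbered libraries correlated with r = 0.01 across regions. Whether such libraries shared a litter, day or batch was not tested. Setting missing values to the library's lowest listed value called 4 regions, all at *Sox6* (3 higher and 1 lower after C59), among 1568 of 22313. By its construction, libraries without a summit then had nearly equal values. With this depth, a site at background coverage needs a fold enrichment of 4.24 or more to be listed after C59, so weaker β-catenin at such a site cannot be seen. At sites with a higher expected coverage, the C59 lists hold summits down to a fold enrichment of 2.015 (replicate 1) and 1.768 (replicate 2).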
